A study of Mus musculus with 2 samples.

Results

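Transcripts of 9 retinoid genes of mouse skin, out of 19465 genes in the table, were followed across 4 tissue sections and the tissue regions within them: the retinoid-binding proteins Crabp2 and Fabp5, the metabolic enzymes Dhrs3, Rdh10, Lrat, Aldh1a3 and Cyp26b1, and the nuclear receptors Rarg and Rxra. They were taken by their symbols, and all 9 were found in the table. Spatial transcriptomes had been recorded on Visium slides, which capture RNA at barcoded spots under a tissue section, in skin of hairless SKH-1 mice, all female and aged 10 to 12 weeks. The 4 groups were normal skin (control), skin after ultraviolet radiation (UVR), irradiated skin treated with 0.1% retinol, and irradiated skin treated with 0.03% 9-cis HPR, which the title of the study places among retinoids. Every group was represented by 1 section, control and UVR skin sharing 1 capture area and both treated skins sharing the other. The UVR dose, the schedule of treatment, the vehicle and the number of animals are not given in the sources used here.

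Retinol taken up by a cell is stored as retinyl esters or oxidised first to retinal and then to retinoic acid, and retinoic acid is cleared by enzymes of the CYP26 family. Retinoic acid is carried to the nucleus by CRABP2, which delivers it to retinoic acid receptors, or by FABP5, a fatty acid-binding protein that also delivers ligands to other nuclear receptors. Retinoic acid receptors bind DNA as pairs with retinoid X receptors, and RARG and RXRA are the forms known for the epidermis, where retinoids regulate growth and cornification of keratinocytes.

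These receptor pairs bind direct repeats of a hexamer, and the sequence before the start site is shown for both receptor genes and, for comparison, for Rarb and Cyp26a1, whose promoters are textbook sites of retinoic acid response. The 4 windows hold the 250 bases before the annotated start, 5′ to 3′ on the strand of the gene, from RefSeq on GRCm38.p6, and capitals mark each direct repeat and each match on either strand to AGGTCA (held by 16.3% of RefSeq windows that also take in the 50 bases after the start), AGTTCA (by 14.0%), GGGTCA (by 13.7%) or GGTTCA (by 10.4%). The Rarg window is chr15:102257523-102257772 on the minus strand, the Rxra window chr2:27709042-27709291 on the plus strand, the Rarb window chr14:16575477-16575726 on the minus strand and the Cyp26a1 window chr19:37697558-37697807 on the plus strand.
Rarg: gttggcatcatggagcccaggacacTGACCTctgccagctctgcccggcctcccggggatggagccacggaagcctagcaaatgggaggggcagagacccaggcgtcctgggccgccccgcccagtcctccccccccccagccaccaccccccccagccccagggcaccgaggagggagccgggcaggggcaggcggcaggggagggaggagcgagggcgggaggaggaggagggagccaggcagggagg
Rxra: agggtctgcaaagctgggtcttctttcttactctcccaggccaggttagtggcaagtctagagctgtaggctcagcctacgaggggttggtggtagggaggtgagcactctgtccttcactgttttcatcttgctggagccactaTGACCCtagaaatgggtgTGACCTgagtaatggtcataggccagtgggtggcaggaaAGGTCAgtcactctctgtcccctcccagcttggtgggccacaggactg
Rarb: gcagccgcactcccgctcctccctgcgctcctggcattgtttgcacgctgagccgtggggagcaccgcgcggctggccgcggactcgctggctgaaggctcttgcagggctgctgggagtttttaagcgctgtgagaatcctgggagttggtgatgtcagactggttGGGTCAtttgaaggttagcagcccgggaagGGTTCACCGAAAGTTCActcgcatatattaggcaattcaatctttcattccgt
Cyp26a1: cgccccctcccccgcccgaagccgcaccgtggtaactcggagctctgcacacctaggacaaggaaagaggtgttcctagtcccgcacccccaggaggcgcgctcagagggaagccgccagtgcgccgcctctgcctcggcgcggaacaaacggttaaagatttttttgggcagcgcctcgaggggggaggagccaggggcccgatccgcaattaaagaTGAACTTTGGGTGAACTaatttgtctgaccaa
In Rarb the capitals of the longer run are a direct repeat with a spacer of 5 bases, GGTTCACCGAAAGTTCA, beginning 53 bases before the start. In Cyp26a1 a repeat with the same spacing, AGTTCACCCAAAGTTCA, runs on the opposite strand, its far end 32 bases before the start. Rarg holds a lone hexamer 225 bases before its start, and the Rxra window, which precedes a start annotated inside the gene, holds 3 hexamers but no direct repeat. Each receptor gene has another window in the table, not printed, without a hexamer. Of 32851 RefSeq windows of 300 bases, which add the 50 bases after the start, 43.7% held at least 1 of the 4 hexamers, 0.222% a direct repeat with a spacer of 1 base, 0.268% with a spacer of 2 bases and 0.0974% with a spacer of 5 bases; hexamers inside a repeat were counted in both. A window was matched for 5 of the 9 genes (Rxra, Lrat, Dhrs3, Cyp26b1 and Rarg, with 9 windows between them), no direct repeat was found in any of the 9, and Crabp2, Fabp5, Rdh10 and Aldh1a3 were not matched. A match describes letters in the window only.

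Spots needed at least 200 UMIs (unique molecular identifiers, each 1 counted RNA molecule) to be kept. By that minimum, 339 control, 647 UVR, 544 retinol-treated and 644 HPR-treated spots remained, with 326095, 2558616, 1414976 and 1249928 UMIs. Levels are given as CPM, the share of a gene in all UMIs of its section or region scaled to 1000000, with exact 95% intervals. With 1 section per group there is no test, and all intervals cover counting error only, not the spread between animals. The labels place the sections as upper and lower, which was read from the row of the image. The spot grid runs the other way, and reading it instead exchanges the 2 groups of each area and turns every direction between them. The capture area cannot be told apart from the treatment wherever a treated section is set against UVR or control skin. On the area of the treated sections, 1472 of 4992 grid positions lie above the upper edge of the image, and the retinol-treated section ends towards that edge in a straight row of 38 spots; how much tissue lay above it is not recorded. In a section, fewer cells of a type and less RNA per cell cannot be told apart.

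The pathway was represented very unevenly. All 9 genes were detected in every section, but Fabp5 supplied 68.6% of their UMIs, Crabp2 18.0% and Rarg 12.0%. By UMIs over all sections, Fabp5 ranked 20, Crabp2 106 and Rarg 185 among the 19465 genes. Dhrs3 (210 UMIs) and Rxra (234 UMIs) were measurable in every section at a minimum of 20 UMIs. Rdh10 (21 UMIs), Lrat (32), Cyp26b1 (39) and Aldh1a3 (42) fell short of 100 UMIs over all sections and were too sparse for comparison. The libraries were made with gene-specific probes, so counts of different genes are not molar amounts.

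**Figure D1:**
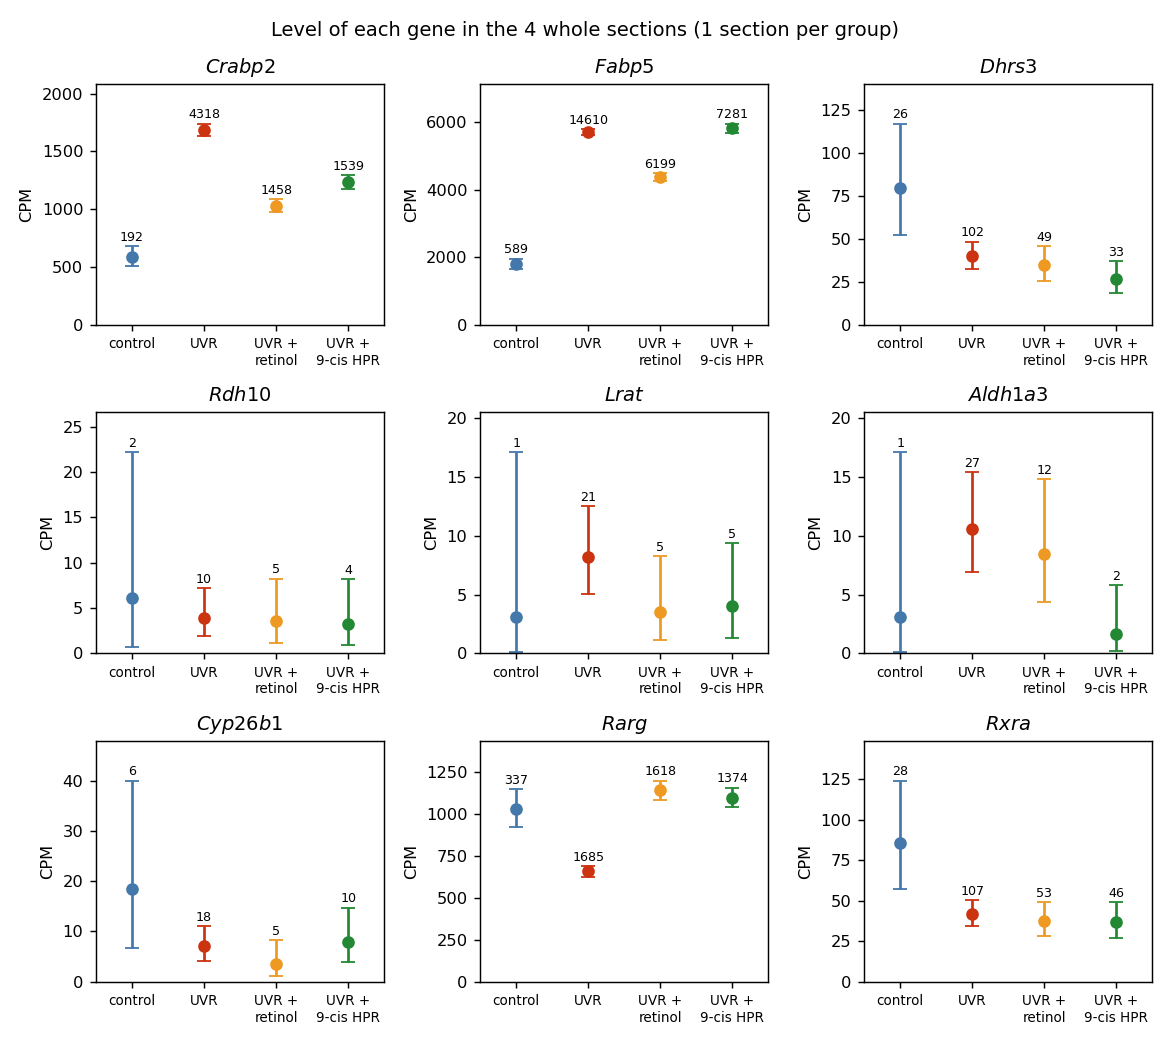
CPM of each gene (y axes, from 0) in the control, UVR, retinol-treated and HPR-treated section, with 95% counting intervals as bars and the number of UMIs above each point. Crabp2 and Fabp5 are lowest in control skin, Rarg is lowest in UVR skin, and the intervals of Rdh10, Lrat, Aldh1a3 and Cyp26b1 are wide.

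Spots were clustered into 7 regions without the retinoid genes, and each is called here by number and leading genes, since a spot covers several cells. Region 3, led by Krt77 and Krt10, held 116 control spots and 5 from elsewhere. Region 2 (Adam8, Ticrr, Hist1h2bk) and region 6 (Aqp5, Cdsn) held the epidermal spots of the UVR and treated sections. The epidermal comparison therefore sets control skin, nearly all from region 3, against regions 2 and 6 of the other sections. Region 1 (Fa2h, Mmp11) was rich in sebaceous and matrix genes, region 4 (Atp6v0d2, Mpeg1, Trem2) in macrophage and matrix genes, region 5 in Cst6, Lbh and Tcf7l1, and region 0 in muscle genes such as Myh1. Depth differed with them: the median epidermal spot had 1181 UMIs in control and 7072 in UVR skin, 6567 with retinol and 4670 with HPR. The markers fixed for epidermal layers also differed: the 8 basal markers summed to 25269 CPM in control and 59997 CPM in UVR epidermal regions, while the 7 measured cornified markers summed to 91939 CPM and 35816 CPM (1 of the 7 at 0 in UVR skin). With retinol and HPR the basal markers summed to 35605 and 32153 CPM. The cornified markers summed to 27639 and 35944 CPM there (1 of the 7 at 0 with HPR). Over the whole sections the 8 sebaceous markers summed to 1239 CPM in control and 106 CPM in UVR skin. They summed to 201 CPM with retinol (2 at 0) and 49.6 CPM with HPR (4 at 0). Region 1 was also above other spots in basal markers, by a median log2 fold of 1.05. A contrast within region 1 therefore need not lie within 1 kind of tissue. The part of these shifts in the levels below was not tested, in the treated sections as in UVR and control skin.

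Crabp2 (ENSMUSG00000004885, chr3:87948693-87953372, GRCm38.p6), the carrier that hands retinoic acid to its receptors, gave 192 UMIs in control and 4318 in UVR skin, 1458 with retinol and 1539 with HPR. These were 589 CPM (508.5 to 678), 1688 CPM (1638 to 1739), 1030.4 CPM (978 to 1085) and 1231 CPM (1171 to 1294), in that order. No interval overlapped another: control skin was lowest, UVR skin highest, and both treated skins lay between. Against control, the level was 1.75-fold higher (1.5 to 2.04) with retinol and 2.09-fold higher (1.80 to 2.44) with HPR.

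Within the epidermal regions Crabp2 stood at 626 CPM in control, 2188 CPM in UVR, 1292 CPM in retinol-treated and 1611 CPM in HPR-treated skin. UVR epidermis was 3.5-fold above control (2.92 to 4.23). Retinol-treated epidermis was 1.69-fold below UVR (1.58 to 1.81) and HPR-treated epidermis 1.36-fold below it (1.28 to 1.45). The step to the treated sections was larger in region 2, where retinol was 1.95-fold (1.76 to 2.17) and HPR 1.73-fold (1.57 to 1.92) below UVR, than in region 6, where the values were 1.49-fold (1.36 to 1.63) and 1.14-fold (1.05 to 1.23). Crabp2 was nearly level across both regions in UVR skin, with a ratio of region 6 over region 2 of 1.04 (0.974 to 1.11), and was higher in region 6 with retinol, at 1.36 (1.21 to 1.54) and with HPR, at 1.58 (1.41 to 1.77). Loricrin (Lor), a protein of the cornified envelope, was 8.52, 4.82 and 8.37 times higher in region 6 than in region 2 of the 3 sections, so region 6 was the more cornified in each.

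Crabp2 was also high outside the epidermis. Region 5 had 1706 CPM in control skin (40 UMIs) and 2994 CPM in UVR skin (178 UMIs), which was 2.68-fold (1.83 to 3.87) above control region 3 and 1.35-fold (1.15 to 1.57) above UVR region 6. In HPR-treated skin the order was the other way, with 1093 CPM in region 5 (25 UMIs), 1.79-fold (1.2 to 2.78) below region 6. Region 1 held 426 to 810.0 CPM over the 4 sections, and region 4 held 0 to 5 UMIs in each. Region 5 was small, with 36 control, 28 UVR, 13 HPR-treated and 6 retinol-treated spots, the last with 25 Crabp2 UMIs and too few UMIs in all for a level. Tyrp1, a melanocyte gene, was among its 10 leading genes, so no cell type is attached to it.

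Fabp5 (ENSMUSG00000027533, chr3:10012585-10016610), the fatty acid-binding protein of keratinocytes, gave 589, 14610, 6199 and 7281 UMIs in control, UVR, retinol-treated and HPR-treated skin. The levels were 1806 CPM (1663 to 1958), 5710.1 CPM (5618 to 5803), 4381 CPM (4273 to 4491) and 5825 CPM (5693 to 5960.1). Control skin was far below the others, and of the treated sections the retinol-treated one was below UVR skin. UVR was 3.16-fold above control (2.91 to 3.44), retinol 1.30-fold below UVR (1.27 to 1.34), and HPR at 1.02 times the UVR level (0.992 to 1.05). The last ratio turned with the side of the image, from -0.32 on the log2 scale on the left to 0.29 on the right.

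The contrast with control was larger in the epidermal regions, at 1319 CPM in control against 6643 CPM in UVR, 5327 CPM in retinol-treated and 7014 CPM in HPR-treated skin. UVR epidermis was 5.04-fold above control (4.45 to 5.73), retinol-treated 1.25-fold below UVR (1.21 to 1.29), and HPR-treated 1.06 times UVR (1.02 to 1.09). In control skin, Fabp5 was not highest in the epidermis: region 1 reached 4605 CPM (227 UMIs), 3.61-fold (3.0 to 4.34) above region 3 at 1276 CPM (243 UMIs), and region 4 reached 2807 CPM (54 UMIs), 2.20-fold (1.61 to 2.96) above it. In UVR skin the order was another, with 7576 CPM in region 2, 6810 CPM in region 1 and 5902 CPM in region 6. Region 1 differed less between UVR and control than the epidermis did, by 1.48-fold (1.29 to 1.70). There, retinol was 1.87-fold (1.76 to 2.00) and HPR 1.39-fold (1.30 to 1.49) below UVR. In muscle spots of region 0, Fabp5 ranged from 155 CPM in UVR to 732 CPM in HPR-treated skin.

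**Figure D2:**
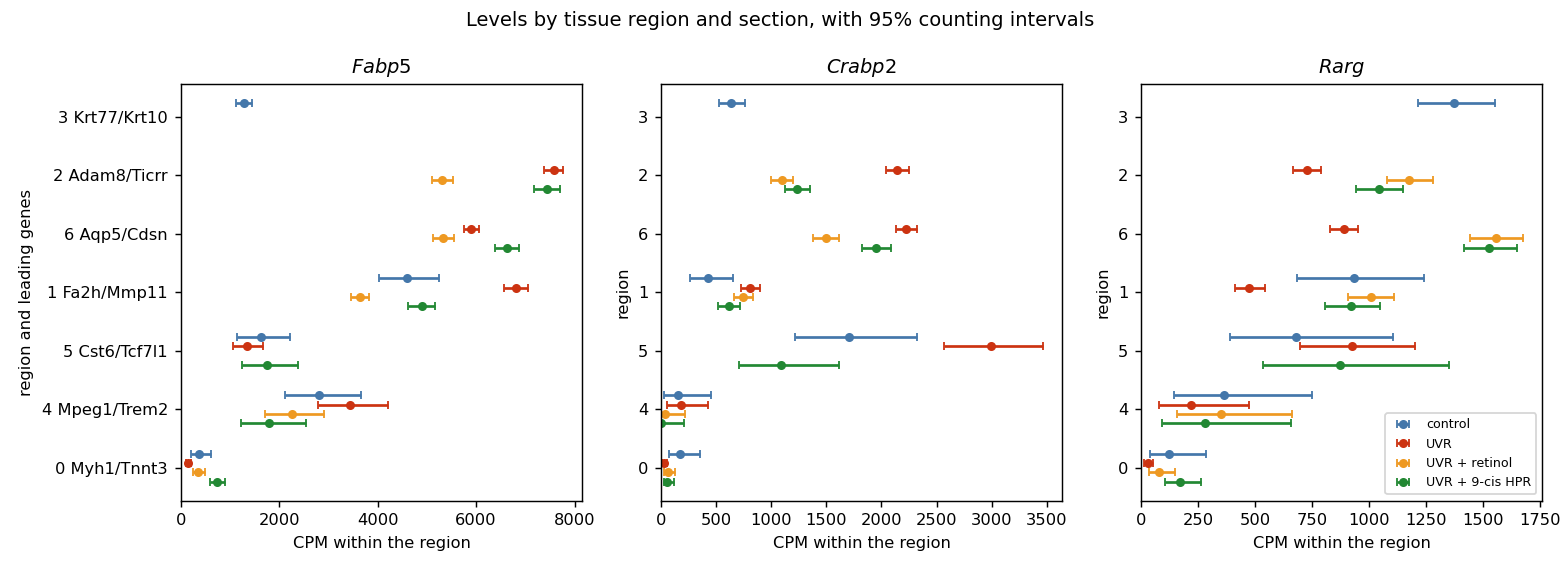
CPM within each region (x axes, from 0) of Fabp5, Crabp2 and Rarg, coloured by section, with 95% counting intervals, for regions with at least 10000 UMIs in that section. In control skin Fabp5 is higher in region 1 than in region 3, Crabp2 is highest in region 5 in control and UVR skin, and Rarg is below the other sections in regions 2, 6 and 1 of UVR skin.

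The balance between both carriers differed between sections and regions. In the epidermal regions there were 2.11 Fabp5 UMIs for each Crabp2 UMI in control skin (1.69 to 2.64), 3.04 in UVR (2.93 to 3.15), 4.12 with retinol (3.86 to 4.4) and 4.35 with HPR (4.10 to 4.62). The ratio was 1.44 times higher in UVR than in control (1.15 to 1.80), and a further 1.36 times (1.26 to 1.46) and 1.43 times (1.34 to 1.54) higher with retinol and HPR. Region 1 ran otherwise, with 10.8 Fabp5 UMIs per Crabp2 UMI in control (6.90 to 17.8), 8.41 in UVR (7.52 to 9.43), 4.86 with retinol (4.29 to 5.53) and 7.98 with HPR (6.75 to 9.49). Over the whole section, UVR was at 1.10 times the control ratio (0.929 to 1.31), within counting error. Being a ratio of UMIs within a region, it does not depend on the total used for CPM, but it says nothing of which of the carriers differed.

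Rarg (ENSMUSG00000001288, chr15:102234938-102257522), the retinoic acid receptor of the epidermis, was, unlike both carriers, lower in UVR than in control skin. It gave 337, 1685, 1618 and 1374 UMIs in control, UVR, retinol-treated and HPR-treated skin, or 1033 CPM (926 to 1149.8), 659 CPM (627.5 to 691), 1143.5 CPM (1088.5 to 1201) and 1099 CPM (1042 to 1159). UVR skin was the lowest, and the intervals of the other 3 sections overlapped. UVR was 1.57-fold below control (1.39 to 1.76), and retinol and HPR were 1.74-fold (1.62 to 1.86) and 1.67-fold (1.55 to 1.79) above UVR. Against control, the treated levels were 1.11 times (0.983 to 1.25) and 1.06 times (0.944 to 1.2).

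UVR skin was lowest in the epidermal regions too, with 1360 CPM in control (1359.9, from 263 UMIs), 817 CPM in UVR, 1366 CPM in retinol-treated and 1306 CPM in HPR-treated skin. UVR was 1.66-fold below control (1.45 to 1.90), retinol 1.67-fold above UVR (1.55 to 1.81) and HPR 1.60-fold above it (1.48 to 1.73). Relative to control the treated ratios were 1.00 (0.878 to 1.15) and 0.960 (0.839 to 1.10). Outside the epidermis, region 1 had 933, 475, 1008 and 922 CPM, UVR being 1.96-fold below control (1.39 to 2.72). Region 5 did not share this order, with 682 CPM in control (16 UMIs) and 925 CPM in UVR skin (55 UMIs), a ratio of 1.36 (0.765 to 2.53). HPR was at 0.945 times UVR there (0.537 to 1.60). Regions 4 and 5 together, the dermal layer, had 539, 701, 526 and 616 CPM in the 4 sections, with overlapping intervals. Rarg was higher in the more cornified region 6 than in region 2 in each irradiated section, by 1.22-fold (1.10 to 1.36) in UVR, 1.32-fold (1.18 to 1.49) with retinol and 1.47-fold (1.29 to 1.66) with HPR. It was 1.66-fold (1.43 to 1.93) above region 1 in HPR-treated region 6, and 28.4 to 170 CPM in muscle spots.

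The receptor and the carrier of its ligand stood in different proportions. In the epidermal regions there were 2.17 Rarg UMIs per Crabp2 UMI in control skin (1.75 to 2.72), 0.374 in UVR (0.351 to 0.397), 1.06 with retinol (0.974 to 1.15) and 0.811 with HPR (0.748 to 0.879). UVR skin was at 0.172 times the control ratio (0.136 to 0.216). Retinol was at 2.83 times (2.55 to 3.14) and HPR at 2.17 times (1.96 to 2.40) the UVR ratio, and both lay below control, at 0.487 (0.383 to 0.615) and 0.373 (0.294 to 0.472) of it.

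**Figure D3:**
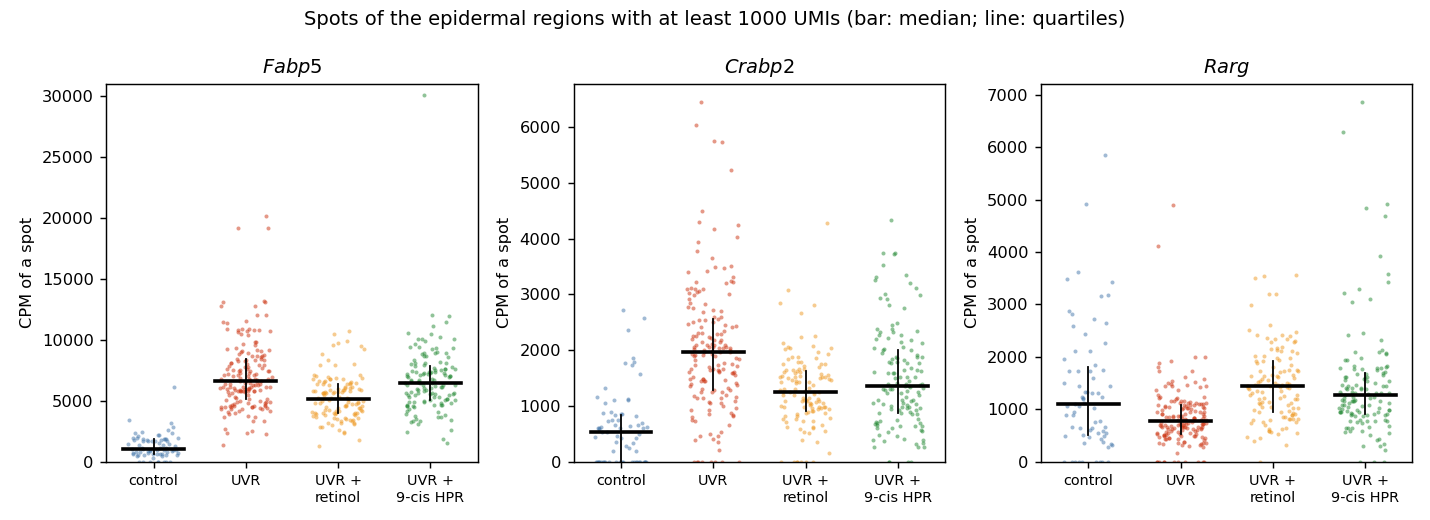
CPM of Fabp5, Crabp2 and Rarg (y axes, from 0) in single spots of the epidermal regions with at least 1000 UMIs, by section, with the median as a bar and the quartiles as a line. The median of Fabp5 is 1078 CPM in control and 6604 CPM in UVR skin, and that of Rarg is lowest in UVR skin at 784 CPM.

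Single spots show the spread within a section, and they are not replicates. Among epidermal spots with at least 1000 UMIs (71 control, 169 UVR, 121 retinol-treated, 133 HPR-treated), the lower quartile of Fabp5 in UVR skin was 5120.3 CPM and the upper quartile in control skin 1823 CPM. The highest control spot had 6157 CPM, and the lowest UVR spot 1359.5 CPM. Crabp2 had medians of 532, 1965, 1257 and 1359 CPM in control, UVR, retinol-treated and HPR-treated spots, and 24 of the 71 control spots had no UMI. Rarg had medians of 1106, 784, 1439 and 1275 CPM in that order, with quartiles of 503 to 1801 CPM in control and 530.4 to 1076 CPM in UVR skin, so spots of these sections overlapped widely.

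Shares of spots with a UMI depend on depth, so they were also computed with spots thinned to 500 UMIs. Crabp2 was seen in 47.1% of control and 87.4% of UVR epidermal spots as sequenced, and in 25.4% and 58.5% after thinning, against 10.6% and 1.29% of thinned muscle spots. With retinol and HPR the thinned epidermal shares were 45.5% and 50.7%. Rarg was seen in 74.4% of control and 85.3% of UVR epidermal spots as sequenced, an order that turned after thinning to 52.4% and 33.3%, with 51.5% and 49.1% in the treated sections and 1.41% to 7.51% in muscle. Thinned Fabp5 shares were 48.1% in control epidermis and 91.4% to 95.1% in the others, with 9.08% to 27.2% in muscle. Muscle spots had median depths of 837 UMIs in control and 1679 UMIs in UVR skin.

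**Figure D4:**
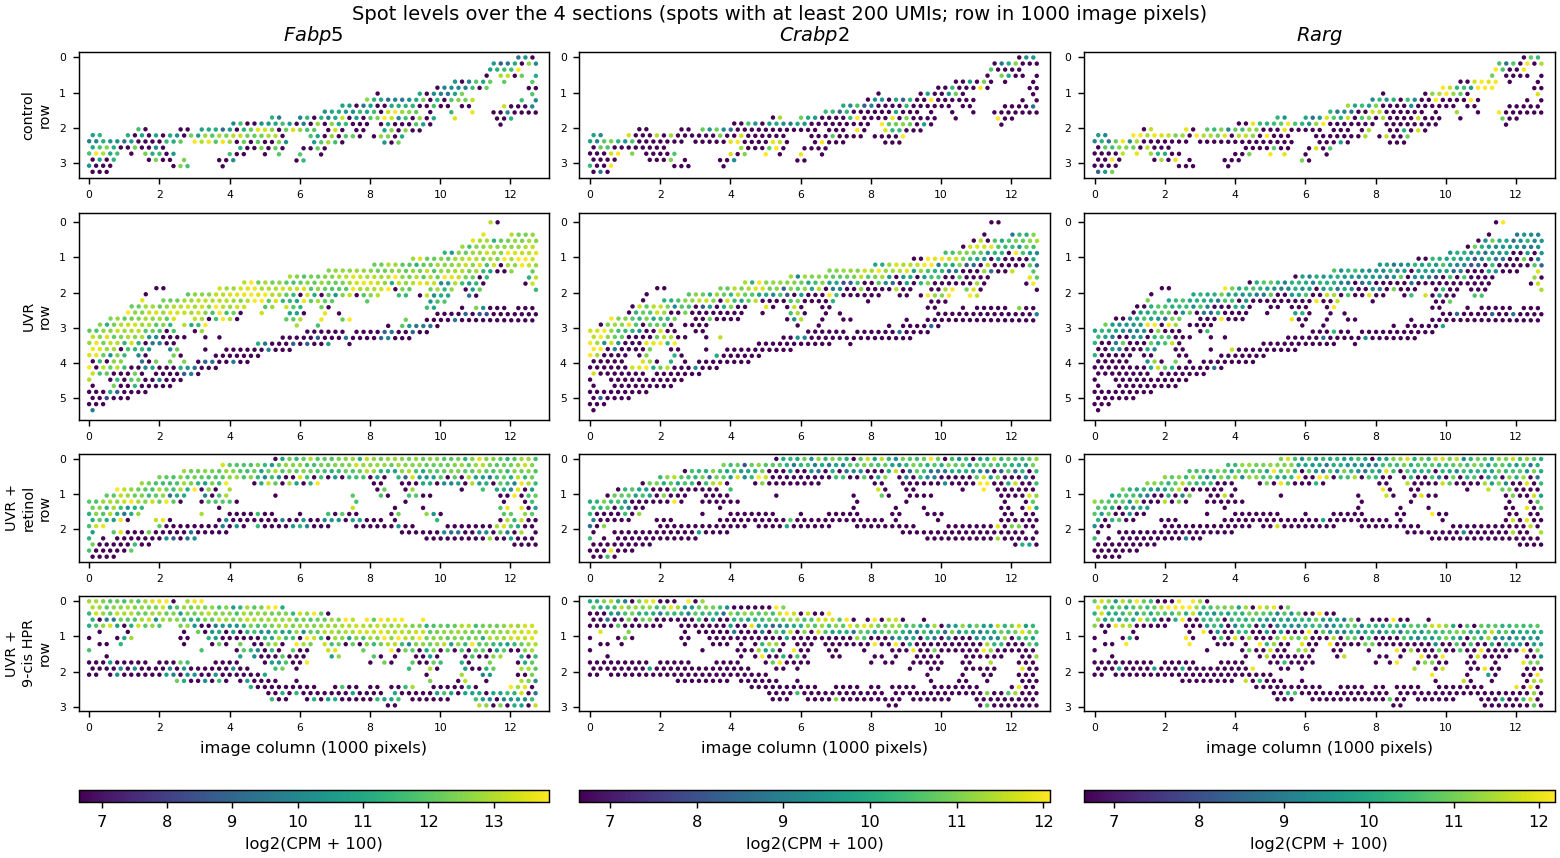
Level of Fabp5, Crabp2 and Rarg in every spot with at least 200 UMIs, as log2(CPM + 100), drawn at its position in each section, with axes in 1000 image pixels from the first spot of the section. In the UVR and treated sections the upper band is bright and the lower, muscle band mostly dark, while in control skin the brightest Fabp5 spots lie beneath the upper edge. The upper band of UVR skin is brighter for Crabp2 and dimmer for Rarg than those of the treated sections.

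Among the enzymes, Dhrs3 (ENSMUSG00000066026, chr4:144892534-144928209), a retinal reductase that turns retinal back to retinol, gave 26, 102, 49 and 33 UMIs, or 79.7, 39.9, 34.6 and 26.4 CPM in control, UVR, retinol-treated and HPR-treated skin. Control skin was highest. UVR was 2.00-fold below it (1.25 to 3.10), retinol was at 0.869 times UVR (0.605 to 1.23), and HPR was 1.51-fold below UVR (1.01 to 2.31). Its place in the tissue was unlike that of Crabp2, while Fabp5 was also higher in region 4 than in region 3 of control skin, by 2.20-fold. Region 4, with macrophage and matrix genes, had 519.9 CPM in control (10 UMIs) and 544 CPM in UVR skin (15 UMIs), which was 11-fold (4.02 to 30.6) above control region 3 and 20.1-fold (9.92 to 39.5) above UVR region 6. In each treated section region 4 held 3 Dhrs3 UMIs. Its ratio to region 6 was 12.4 with HPR (2.01 to 58.1) and 5.06 with retinol, where the interval included 1 (0.896 to 19.7). Region 4 supplied 38.5% of Dhrs3 UMIs in control and 14.7% in UVR skin. It held 5.90% and 1.08% of all UMIs there, and 10% and 7.88% of the kept spots. The 8 macrophage and dendritic markers summed to 1208 CPM in control skin, with none at 0, and 157 CPM in UVR skin, with 1 at 0. In the epidermal regions alone they summed to 899.7 CPM in control and 82.8 CPM in UVR skin, with 1 at 0 in each. With epidermal, dermal and muscle layers weighted alike, the log2 ratio of Dhrs3 in UVR over control was -0.24, a difference of less than 2-fold. In the epidermal regions Dhrs3 stood at 51.7 CPM in control (10 UMIs) and 24.9 CPM in UVR skin (43 UMIs). That ratio of 0.481 (0.238 to 1.07) had too few UMIs to count as measured. Whether the amount of macrophage-type tissue has a part in the Dhrs3 levels was not tested.

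The other enzymes were seen in few spots. Lrat (ENSMUSG00000028003, chr3:82892582-82903974), which esterifies retinol for storage, gave 1, 21, 5 and 5 UMIs, and 12 of the 21 in UVR skin lay in region 2 against 4 in region 6. Aldh1a3 (ENSMUSG00000015134, chr7:66390892-66427477), which makes retinoic acid from retinal, gave 1, 27, 12 and 2 UMIs. It had 2 UMIs with HPR against 27 in UVR skin, and 6 of the 27 lay in the small region 5. Cyp26b1 (ENSMUSG00000063415, chr6:84571414-84593908), which clears retinoic acid, gave 6, 18, 5 and 10 UMIs, with 9 of 18 in UVR and 6 of 10 in HPR-treated skin in region 1. Rdh10 (ENSMUSG00000025921, chr1:16105882-16132550), which oxidises retinol to retinal, gave 2, 10, 5 and 4 UMIs. For Lrat, Rdh10 and Cyp26b1 the interval of every ratio to UVR skin included 1, so no difference was detectable at this depth. Rdh10, Lrat, Cyp26b1 and Aldh1a3 were too sparse for comparison, so no fold is given for them. Among their many ratios some intervals excluded 1, such as Aldh1a3 in HPR over UVR and Cyp26b1 in retinol over control. These were not read as differences.

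Rxra (ENSMUSG00000015846, chr2:27676445-27763319), the partner that retinoic acid receptors need on DNA, gave 28, 107, 53 and 46 UMIs, or 85.9, 41.8, 37.5 and 36.8 CPM in control, UVR, retinol-treated and HPR-treated skin. Control skin was highest and the intervals of the other sections overlapped. UVR was 2.05-fold below control (1.30 to 3.14), and both treated sections lay within counting error of UVR, at 0.896 (0.632 to 1.26) and 0.880 (0.609 to 1.25) of it. With the epidermal, dermal and muscle layers weighted alike, the log2 ratio of UVR over control was -0.14, in place of -1.04. Region 1 has no part in this weighting. The value gives full weight to control muscle with 1 UMI and the control dermal layer with 2 UMIs. The weighted ratio was -0.92 for retinol over UVR, in place of -0.16, and 0.33 for HPR over UVR, in place of -0.18. With retinol the dermal layer held 0 Rxra UMIs, and region 1, left out, held 28 of the 53. Region 1 stood at 71.4 CPM with retinol and 51.5 CPM in UVR skin, a ratio of 1.39 (0.765 to 2.54). Within the epidermal regions UVR was 3.14-fold below control (1.76 to 5.39). Retinol was 4.78-fold (2.38 to 9.66) and HPR 3.58-fold (1.85 to 6.88) below control there. These epidermal ratios had too few UMIs over both sections to count as measured. In UVR skin Rxra was higher in muscle than in epidermis: region 0 had 88.4 CPM (28 UMIs), 2.93-fold (1.68 to 5.11) above region 6 at 30.1 CPM. The ratio was 3.75 with HPR (1.23 to 11.5) and 2.65 with retinol, where the interval included 1 (0.857 to 7.72). In control skin the intervals overlapped, with 24.6 CPM in muscle on 1 UMI (0.622 to 136.8) and 98.2 CPM in epidermis on 19 UMIs (59.1 to 153).

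Set against all genes, 4 of the 5 measurable members were at least 2-fold apart between UVR and control skin, Crabp2 and Fabp5 higher and Dhrs3 and Rxra lower, where 20% of 2510 genes with at least 100 UMIs were (12.4% higher and 7.61% lower). Dhrs3 and Rxra lie close to the limit, and only Crabp2 and Fabp5 passed it with layers weighted alike or without the 50 most abundant genes in the total. In the epidermal regions 2 of 3 passed, both higher, against 24% of 1753 genes (16.5% higher and 7.47% lower). None of 5 was 2-fold apart between retinol-treated and UVR skin, against 13.3% of genes, and 0 of 3 in the epidermal regions, against 16.2%. Likewise 0 of 5 was between HPR-treated and UVR skin, against 12.6%, and 0 of 3 in the epidermal regions, against 13.3%. The members were chosen with earlier results of these data known, so these counts are descriptions only. The median log2 ratio of all genes was 0.09 for UVR over control, -0.05 for retinol over UVR and -0.13 for HPR over UVR, and that of the measurable members -0.65, -0.20 and -0.18.

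**Figure D5:**
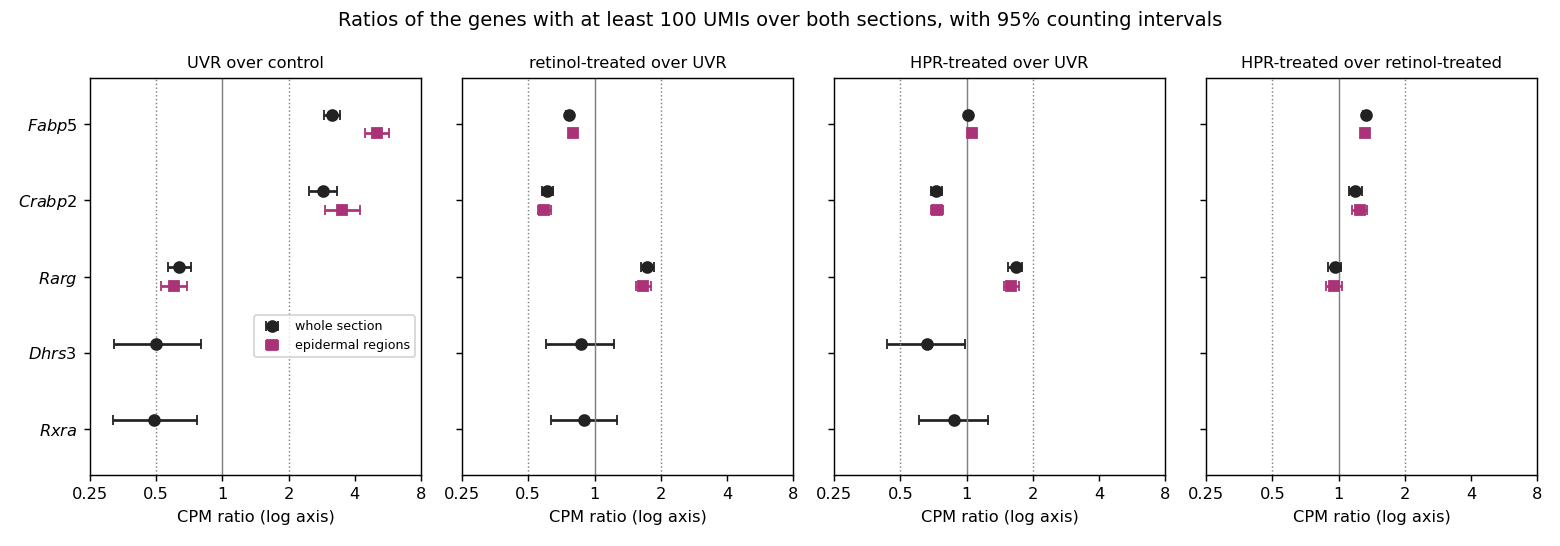
CPM ratios (x axes, log scale) in 4 comparisons, for genes that reach 100 UMIs, over the whole section (circles) and the epidermal regions (squares), with 95% counting intervals and dotted lines at 2-fold. In UVR over control, Crabp2 and Fabp5 lie beyond 2-fold and Dhrs3 and Rxra just past the lower line, and no gene passes either line in the other panels.

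The treated sections share a capture area but differ in both compound and concentration, 0.1% retinol against 0.03% 9-cis HPR, so their values stand side by side only. HPR over retinol was 1.19 for Crabp2 (1.11 to 1.28), 1.33 for Fabp5 (1.29 to 1.38) and 0.961 for Rarg (0.894 to 1.03). In the epidermal regions the ratios were 1.25 (1.15 to 1.35), 1.32 (1.27 to 1.37) and 0.956 (0.880 to 1.04). None of the 3 reached 2-fold, against 2.69% of genes over the whole section and 2.33% in the epidermal regions. Both comparisons with UVR use the same UVR section.

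The wider pathway was examined through 80 further retinoid genes, of which 9 had no UMI in any section and 22 reached 100 UMIs. Their lists were chosen with earlier results of these data known, so counts set beside all genes are descriptions only. Among 9 retinoid carriers and uptake genes, Rbp2, a cellular retinol carrier, gave 7, 186, 72 and 76 UMIs in control, UVR, retinol-treated and HPR-treated skin. It was 3.39-fold higher in UVR than in control (1.61 to 8.54), 1.43-fold lower with retinol than in UVR (1.08 to 1.90), and at 0.836 times UVR with HPR (0.632 to 1.10). Of 6 other fatty acid-binding proteins, Fabp3 alone was measured, with no 2-fold difference in any of the 4 comparisons.

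Of 19 genes for the interconversion of retinol and retinal, 3 were measured between UVR and control and 1 passed 2-fold, where 20% of all genes did (7.61% lower). Adh7, an alcohol dehydrogenase that oxidises retinol, gave 76, 81, 41 and 21 UMIs, or 233, 31.7, 29.0 and 16.8 CPM, and was 7.36-fold lower in UVR than in control skin (5.31 to 10.2). Control skin was high and the irradiated sections were all low. None of the 3 measured genes of retinyl ester synthesis and hydrolysis passed 2-fold in any of the 4 comparisons. Over the whole section, between 2.69% (HPR over retinol) and 20% (UVR over control) of all genes did. Of 6 genes for synthesis and breakdown of retinoic acid, Cyp2s1, a cytochrome able to metabolise retinoic acid, was the only one measured. It gave 8, 417, 23 and 20 UMIs, or 24.5, 163, 16.3 and 16 CPM: UVR was 6.64-fold above control (3.34 to 15.5), and retinol and HPR were 10.0-fold (6.59 to 16) and 10.2-fold (6.51 to 16.8) below UVR. UVR skin stood alone, and the other 3 sections were low.

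Of 13 other retinoid and partner receptors, 3 were measured and none passed 2-fold over the whole section. Between 2.69% (HPR over retinol) and 20% (UVR over control) of all genes did. In the epidermal regions 1 of 2 measured receptors passed it in retinol over UVR, against 16.2% of genes. None did in HPR over UVR, against 13.3%. That receptor was Vdr, the vitamin D receptor, 2.57-fold higher with retinol than in UVR (1.94 to 3.40) and 1.82-fold higher with HPR (1.33 to 2.47). Rara had 6, 27, 18 and 12 UMIs and Rarb none in any section, which allows up to 9.20 CPM in control, 1.17 in UVR, 2.12 in retinol-treated and 2.40 in HPR-treated skin.

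Of 18 genes known to respond to retinoic acid, 5 were measured between UVR and control. Of these, 3 were at least 2-fold higher, Areg and Aqp3 among them, and none lower, where 12.4% of all genes were higher. The list median was 1.72 on the log2 scale, against 0.09 for all genes. Because the list was chosen with earlier results of these data known, its count and median are descriptions only. Aqp3, a water and glycerol channel of keratinocytes, gave 122, 9707, 4040 and 3706 UMIs and was 10.1-fold higher in UVR than in control (8.48 to 12.2). Areg, a ligand of the epidermal growth factor receptor, gave 6, 254, 257 and 74 UMIs: UVR was 5.40-fold above control (2.44 to 14.8), and retinol-treated epidermis 2.04-fold above UVR (1.69 to 2.47). Hbegf, a ligand of the same receptor, gave 8, 103, 185 and 57 UMIs and was 3.25-fold higher with retinol than in UVR (2.54 to 4.17), while HPR was at 1.13 times UVR (0.805 to 1.58). HPR over retinol was 3.07-fold lower for Areg (2.36 to 4.03) and 2.87-fold lower for Hbegf (2.12 to 3.93). Retinol-treated skin was thus the highest section for both ligands. Cyp26a1, whose window with a direct repeat is printed above, had 1 UMI, in UVR skin, and Stra6, a retinol transporter, had 0, 1, 1 and 0 UMIs.

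Across the 22 combinations of section and region with at least 10000 UMIs, the genes whose levels most resembled those of Crabp2 were Tmem30b (Pearson r of log2(CPM + 1) of 0.938), Tgm1 (0.935) and Bok (0.933), among 1355 genes with at least 500 UMIs. For Fabp5 they included Ssbp4 (0.952) and Slc2a1 (0.909), and for Rarg Krtdap (0.949) and Klrg2 (0.936). Between members, r was 0.52 for Crabp2 and Fabp5, 0.69 for Crabp2 and Rarg and 0.80 for Fabp5 and Rarg. The 22 points share 4 libraries and their layers, so these values are descriptions only.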

How the data were processed

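The 9 genes, the other gene lists and the marker lists were chosen with earlier results of these data known. Per the labels' protocols, libraries were probe-based and made with the kit for fixed tissue from fresh-frozen sections. For every spot the authors deposited unnormalized UMI counts of each gene. The submitters' processing notes name Space Ranger 2.0.0, Seurat 4.1.0 and mm10. Each symbol was taken from the features list, in which 11 symbols are repeated, none of them a member.

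A tissue-free gap in each image separates its sections, and the smaller image row was read as upper. Of the listed columns, 0 belong to other samples. On both capture areas 430 spot barcodes were listed, as slides share 1 barcode grid. Counts of spots with at least 200 UMIs were summed by section or region and scaled to CPM. Ratios carry exact Clopper-Pearson 95% intervals of the split of a gene's UMIs; genes needed 100 UMIs over both sections, and the size rule was 2-fold. A count of 0 was bounded at 3 counts. Regions came from scanpy 1.11.5 with igraph 0.11.9 (counts scaled to 10000 per spot, 2000 variable genes without the outcome lists, 20 components, 15 neighbours, Leiden resolution 0.5), with a minimum of 10000 UMIs for a level; a cluster took the layer of its best marker list, and regions 2, 3 and 6 were the epidermal ones. Doublets were not called, since spots hold several cells. The rule for named genes took all members, every other listed retinoid gene at least 2-fold apart, and the 3 genes most alike to each member with at least 500 UMIs. Rara, Rarb, Cyp26a1, Stra6, Fabp3 and Lor were named after their values were seen. Some genes that the rule would name are not reported here.

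Sensitivity was checked by other scalings, spot and gene minimums, a pseudocount of 1 CPM, equal depth, image sides, weighted layers, other clusterings and the spot grid. The weighted layers were the epidermal, dermal and muscle ones, without region 1. Scripts (Python 3.11.15, numpy 2.4.6, scipy 1.17.1, pandas 2.3.3, matplotlib 3.10.9) were tested on simulated data. Gene positions and windows come from RefSeq tables of GRCm38.p6, the assembly also called mm10.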

Additional observations from a re-analysis of the deposited data

Results flagged for a closer look

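Spots under the minimum of 200 UMIs were left out of every comparison. Those 1001 spots held 107758 UMIs over all sections, and 5 of the 9 genes had more UMIs in them than the 3 counts that a count of 0 allows. They held 432 Fabp5 UMIs (4009 CPM), 65 Rarg UMIs (603 CPM), 44 Crabp2 UMIs (408 CPM), 31 Dhrs3 UMIs (288 CPM) and 6 Rxra UMIs (55.7 CPM). The Dhrs3 level there was above its level in each of the 4 whole sections, 26.4 to 79.7 CPM. With no minimum of UMIs per spot, the UVR over control value of Dhrs3 was -1.25 on the log2 scale in place of -1.0.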

How the results depend on the processing

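Away from the spot grid, 239 of 248 single-gene values kept their direction and 200 stayed inside the counting interval. Read by the spot grid, 5 of 26 kept it, and UVR over control on the log2 scale became -1.52 for Crabp2, -1.66 for Fabp5, 1.00 for Dhrs3 and 1.04 for Rxra, and -1.81 for Crabp2 and -2.33 for Fabp5 in the epidermal regions. The grid reading also put 2 genes past 2-fold in retinol-treated over UVR skin (2 in the epidermal regions) and 1 in HPR-treated over UVR skin (2 in the epidermal regions), in place of 0. For UVR over control the 4 genes past 2-fold became 2 without the 50 most abundant genes, with a gene minimum of 500 UMIs, at equal total UMIs, in the left or the right side of the image and with layers weighted alike, and 3 with no minimum of UMIs per spot, with a minimum of 500 (Rxra -0.91) and with a pseudocount of 1 CPM (Dhrs3 -0.98). With a gene minimum of 20 UMIs they became 7 (4 higher, 3 lower) of 8, and 4 of 5 in the epidermal regions. That minimum also gave 1 gene for retinol-treated over UVR, 2 for HPR-treated over UVR and 1 for the latter in the epidermal regions. Layers weighted alike gave 1 gene for retinol-treated over UVR. For UVR over control, 3 members were measured in place of 5 at equal total UMIs, on either image side and with a gene minimum of 500. Dhrs3 and Rxra fell short of the minimum there, so 2 of 3 passed. Beyond which genes are counted, the cause of these changes was not tested. Rarg ranged over 0.35 to 0.86 for retinol-treated over UVR and 0.44 to 0.86 for HPR-treated over UVR without the grid, and was 0.09 and 0.15 with it. No paired analysis was possible because each group is 1 section, and the replicate number only names a capture area. Depth limits the 4 sparse enzymes, and differences between animals cannot be judged from 1 section per group.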
